A study of Homo sapiens with 4 samples.

Results

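The BCL2 family decides whether a cell releases the contents of the space between its mitochondrial membranes and so commits to apoptosis. The 10 family genes described here were taken by symbol, BCL2, BCL2L1, MCL1, BAX, BAK1, BCL2L11, BID, BAD, PMAIP1 and BBC3, and each matched 1 of the 60671 Ensembl gene identifiers in the deposited expression tables. In 22RV1 and PC3 prostate cancer cells with DDX52 knocked down, 0 of the 10 members differed from the control library by 1.5-fold or more in either cell line, computed on TPM + 1. Of all genes tested, 8.47% were at least 1.5-fold lower and 5.61% higher in 22RV1, and 9.84% and 8.95% in PC3. As plain TPM ratios, BCL2 in 22RV1 (1.36 TPM with shCON and 0.62 TPM with shDDX52), BCL2 in PC3 (0.21 and 0.37 TPM) and PMAIP1 in PC3 (6.83 and 10.26 TPM) passed that limit. The 3 members whose differences pointed in opposite directions in the cell lines, each by at least 0.2 on a log2 scale, were BAX, BAK1 and BID. Of all genes tested in both lines, 15.4% did so. Between the control libraries of the cell lines, plain TPM ratios put BID 34.3-fold and BCL2L1 3.93-fold higher in PC3, and BBC3 in PC3 at 19.6% of its 22RV1 level. As plain ratios, BCL2 was also at 15.4%, from 1.36 and 0.21 TPM, and PMAIP1 was 2.05-fold higher. On TPM + 1, BCL2 and PMAIP1 did not reach 2-fold. Differences of 2-fold or more on TPM + 1 were common there, with 19.9% of all genes tested higher in PC3 and 21.3% lower.

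RNA was sequenced from 22RV1 cells expressing shCON, 22RV1 cells expressing shDDX52, PC3 cells expressing shCON and PC3 cells expressing shDDX52. Both are established human prostate carcinoma lines. The short hairpin RNAs were delivered with pLKO.1 lentivirus and stable cells were selected with puromycin, so shCON cells carry a vector and a hairpin too, and 1 hairpin sequence against DDX52, a DEAD-box RNA helicase, was used. Each condition has 1 library, so no difference given here has a replicate check, no standard deviation exists and no p-value was computed. Values are TPM, the share of each transcript in its library after correction for length, and they do not tell how deeply a library was sequenced, so counting error is unknown. The log2 ratio is log2((TPM shDDX52 + 1) / (TPM shCON + 1)), and a gene was tested in a comparison when it reached 1 TPM in either library of it. The pseudocount of 1 understates the difference of genes with low values. In bulk RNA, fewer cells with a transcript and less of it per cell cannot be told apart.

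The targeted gene DDX52 was at 4.88 TPM with shCON and 1.20 TPM with shDDX52 in 22RV1, and at 9.20 and 2.07 TPM in the PC3 libraries. KLK2, a kallikrein of prostate luminal cells, was at 32.60 and 23.05 TPM in 22RV1 shCON and shDDX52 and listed at 0 in both PC3 libraries. FOLH1, the prostate-specific membrane antigen, was at 67.89 and 77.38 TPM in 22RV1 and 0.05 and 0.26 TPM in PC3. Of 8 luminal genes in all, 7 were lower in PC3 shCON than in 22RV1 shCON, beside 52.3% of all genes. Not all were absent from PC3: in 22RV1 shCON and PC3 shCON, HOXB13 was at 89.87 and 39.86 TPM and TMPRSS2 at 4.82 and 2.94 TPM. SLC45A3 was higher in PC3, at 5.39 and 14.13 TPM. PTPRC and CD3E, markers of blood cells, were below 1 TPM in all 4 libraries. Some markers moved with the hairpin or the line: VIM was at 12.61 TPM in PC3 shCON and 66.68 TPM in PC3 shDDX52, PECAM1 at 5.03 and 0.85 TPM there, and ALB at 55.21 and 34.37 TPM in 22RV1. Transcripts of the mitochondrial genome took 9.81% and 13.0% of all TPM in 22RV1 shCON and shDDX52 and 8.10% and 10.3% in PC3, and nuclear ribosomal RNA took 1.21%, 0.0872%, 0.0923% and 3.13%. The part of these shifts in the results was not tested.

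Proteins of the family act by binding each other. Pro-survival members such as BCL2, BCL-XL (the product of BCL2L1) and MCL1 hold back the effectors BAX and BAK1, which otherwise assemble in the mitochondrial outer membrane and let cytochrome c escape. BH3-only proteins carry the stress signal: BIM (from BCL2L11), BID and PUMA (from BBC3) can bind all pro-survival members, BAD prefers BCL2 and BCL-XL, and NOXA (from PMAIP1) prefers MCL1. The contact is made by the BH3 helix, a short stretch with an invariant leucine and aspartate that fits into a groove of the pro-survival partner. Much of the regulation of the family is by protein stability, cleavage, phosphorylation and alternative splicing, none of which gene-level mRNA values show.

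The stretch that the family shares is shown first, because the whole family is defined by it. Each line below is 42 coding bases from the GENCODE 29 transcripts (GRCh38), 5′ to 3′ in frame, and the capitals mark the codon for leucine, the codon for the small residue (glycine, alanine or serine) and the codon for aspartate. A codon pattern of leucine, any 3 residues, a small residue, aspartate, any residue and a hydrophobic residue was found in 10 of 10 members and in 2607 of 19590 genes with a coding transcript (13.3%), so a match by itself does not mark a family member.
BCL2: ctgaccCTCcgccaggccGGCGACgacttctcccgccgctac
BCL2L1: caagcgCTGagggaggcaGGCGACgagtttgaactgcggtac
MCL1: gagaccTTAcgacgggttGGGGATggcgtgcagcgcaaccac
BAX: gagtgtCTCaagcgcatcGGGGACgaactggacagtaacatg
BAK1: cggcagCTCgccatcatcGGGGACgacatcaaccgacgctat
BCL2L11: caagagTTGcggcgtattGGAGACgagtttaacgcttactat
BID: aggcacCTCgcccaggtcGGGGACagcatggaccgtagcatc
BAD: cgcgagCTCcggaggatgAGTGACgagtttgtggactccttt
PMAIP1: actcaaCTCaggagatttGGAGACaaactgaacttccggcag
BBC3: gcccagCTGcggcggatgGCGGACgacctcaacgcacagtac
The codons differ in sequence, and every stretch shown encodes the pattern because the search required it. The leucine is written with 4 different codons among the members, CTC in 6 of them, and BAD and BBC3 have serine and alanine in place of glycine. BBC3 is shown in its main frame, because other annotated BBC3 coding transcripts hold a different match in another frame.

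BCL2 (ENSG00000171791, chromosome 18, 63123346 to 63320128, minus strand) was the least abundant member in every library. In 22RV1 it was at 1.36 TPM with shCON and 0.62 TPM with shDDX52, and in PC3 at 0.21 and 0.37 TPM, below 1 TPM everywhere but in the 22RV1 control. Its log2 ratio in 22RV1 was −0.54, and in PC3 it did not reach the level needed for a comparison, so 9 of the 10 members were tested there. In 22RV1, 33.4% of genes at a similar level (mean TPM within 2-fold) lay at least as far from 0, so at this level a ratio of that size was common.

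BCL2L1 (ENSG00000171552, chromosome 20, 31664452 to 31723989, minus strand) was the main pro-survival transcript. With shCON and shDDX52 it was at 44.19 and 50.20 TPM in 22RV1, and at 173.74 and 186.41 TPM in PC3. It was higher with shDDX52 in both lines, with log2 ratios of 0.18 and 0.10, and 51.0% and 74.9% of similar-level genes lay as far from 0. MCL1 (ENSG00000143384, chromosome 1, 150574551 to 150579738, minus strand) encodes a short-lived protein that is lost quickly when translation falters. Its 4 values were close, 29.95 and 24.66 TPM in 22RV1 and 32.62 and 37.15 TPM in PC3, shCON first. The log2 ratios of MCL1 were −0.27 in 22RV1 and 0.18 in PC3. Long and short products of BCL2L1 and MCL1, which have opposite actions on apoptosis, are summed in these gene-level values.

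**Figure D1:**
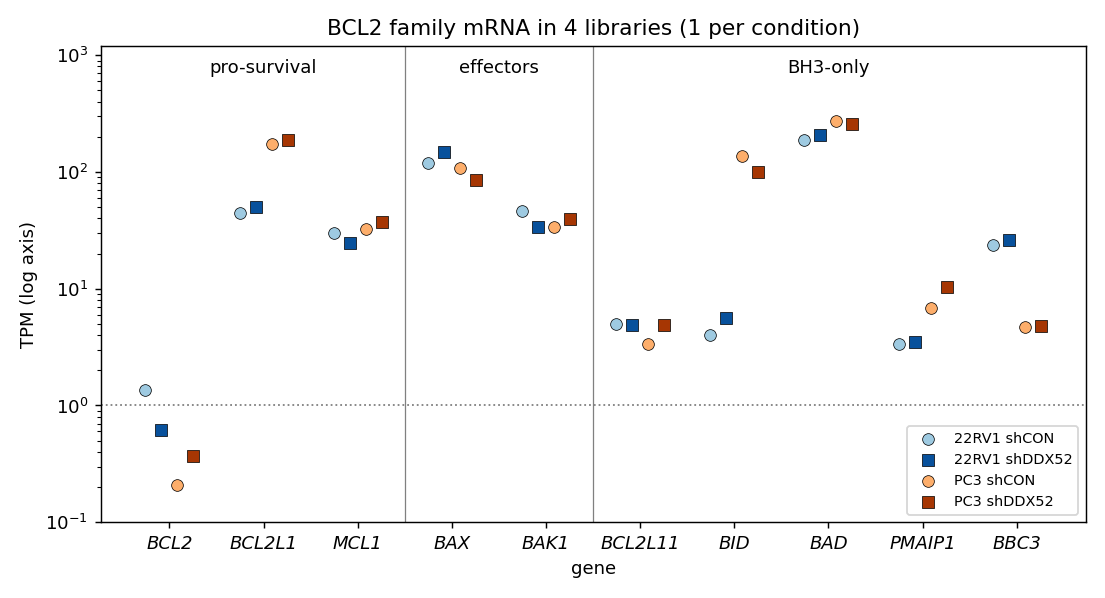
TPM (log axis) of the 10 members in the 4 libraries, 1 point per library, with circles for shCON and squares for shDDX52, ordered by role. The dotted line is 1 TPM, the level a gene had to reach to be tested; BCL2 lies under it in 3 of 4 libraries, and BID, BCL2L1 and BBC3 separate the cell lines.

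Of the effectors, BAX (ENSG00000087088, chromosome 19, 48954815 to 48961798, plus strand) was at 118.73 TPM with shCON and 149.35 TPM with shDDX52 in 22RV1, and at 108.71 and 84.65 TPM in PC3. BAX was therefore higher with shDDX52 in 22RV1 and lower in PC3, with log2 ratios of 0.33 and −0.36. Genes of similar level lay as far from 0 in 18.2% of cases in 22RV1 and 25.5% in PC3. BAK1 (ENSG00000030110, chromosome 6, 33572547 to 33580293, minus strand), the other effector, showed the opposite order, with 46.58 and 33.90 TPM in 22RV1 and 33.66 and 39.68 TPM in PC3. Its log2 ratios were −0.45 and 0.23, and 12.3% and 48.4% of similar-level genes lay as far from 0.

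The BAX/BAK1 TPM ratio, a pair added after the values were seen, was 2.55 with shCON and 4.41 with shDDX52 in 22RV1, and 3.23 and 2.13 in PC3. This is a 1.73-fold higher ratio in 22RV1 and 0.661-fold of the control ratio in PC3. A ratio within a library does not depend on the scaling of that library.

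Among the BH3-only genes, BID (ENSG00000015475, chromosome 22, 17734138 to 17774770, minus strand), whose protein links caspase-8 to mitochondria, was at 3.99 and 5.57 TPM in 22RV1 shCON and shDDX52. In PC3 it was at 136.84 TPM with shCON and 98.96 TPM with shDDX52. The log2 ratios of BID were 0.40 and −0.46, the same directions as those of BAX. Genes of similar level lay as far from 0 in 29.3% of cases in 22RV1 and 14.9% in PC3.

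BAD (ENSG00000002330, chromosome 11, 64269830 to 64284704, minus strand), held inactive by phosphorylation and 14-3-3 proteins, was the most abundant member in all 4 libraries. It was at 187.91 and 207.69 TPM in 22RV1 and 273.13 and 257.07 TPM in PC3, with log2 ratios of 0.14 and −0.087. BCL2L11 (ENSG00000153094, chromosome 2, 111119378 to 111168447, plus strand) was at 4.96 and 4.86 TPM in 22RV1 and 3.39 and 4.91 TPM in PC3, with log2 ratios of −0.024 and 0.43. Exons of both genes overlap those of a gene on the opposite strand, GPR137 at up to 67.6 TPM for BAD and MIR4435-2HG at up to 198 TPM for BCL2L11. Whether the reads were counted by strand is not given in the sources used here, so reads of the partners cannot be told apart from those of BAD and BCL2L11.

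PMAIP1 (ENSG00000141682, chromosome 18, 59899948 to 59904306, plus strand) was at 3.33 and 3.5 TPM in 22RV1 and 6.83 and 10.26 TPM in PC3. Its log2 ratio of 0.52 in PC3 was the highest of any member in either line, beside 0.056 in 22RV1, and 22.0% of similar-level genes in PC3 lay as far from 0. BBC3 (ENSG00000105327, chromosome 19, 47220822 to 47232766, minus strand), which encodes PUMA, was at 23.90 and 26.11 TPM in 22RV1 and 4.69 and 4.81 TPM in PC3. Its log2 ratios of 0.12 and 0.030 were small in both lines.

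As a group, the members lay largely within the bulk of all genes. In 22RV1, 0 of 10 members were 2-fold lower, beside 2.86% of 14438 genes, and 0 were 2-fold higher, beside 2.24%. At 1.5-fold the counts were 0 lower and 0 higher, beside 8.47% and 5.61% of all genes. At 1.25-fold, a threshold added after the values were seen, 2 members were lower (BCL2 and BAK1) beside 22.6% of genes, and 2 were higher (BAX and BID) beside 12.7%. In all, 4 of 10 members were lower in 22RV1, beside 58.8% of genes. The median log2 ratio of the members was 0.089 and that of all genes −0.076.

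In PC3, 0 of 9 members were 2-fold lower, beside 3.44% of 14262 genes, and 0 were 2-fold higher, beside 2.86%. At 1.5-fold the counts were again 0 and 0, beside 9.84% lower and 8.95% higher. At 1.25-fold, 2 members were lower (BAX and BID) beside 22.5% of genes, and 2 were higher (BCL2L11 and PMAIP1) beside 19.7%. In all, 3 of 9 members were lower, beside 53.5% of genes, with a member median of 0.10 and an all-gene median of −0.036. The middle 80% of all genes spanned −0.54 to 0.39 in 22RV1 and −0.58 to 0.55 in PC3. The members BCL2 (−0.543) and BID (0.397) lay just outside that range in 22RV1 (−0.536 to 0.386), and every member tested in PC3 lay inside it.

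**Figure D2:**
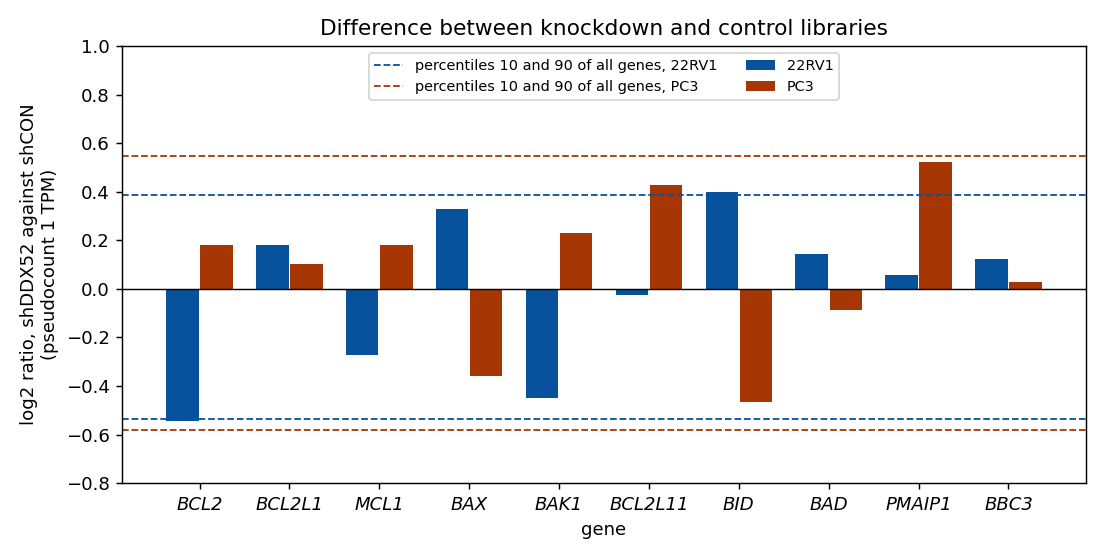
Log2 ratio of each member (shDDX52 against shCON, pseudocount 1 TPM) in 22RV1 and PC3, from 1 library per condition. The dashed lines are the 10th and 90th percentiles of all genes tested in each line; BAX and BID point up in 22RV1 and down in PC3, BAK1 the other way, and the PC3 bar of BCL2 rests on values under 1 TPM.

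Across the lines, the members BAX, BAK1 and BID had log2 ratios of opposite sign and at least 0.2 in size, which is 3 of 9 members tested in both lines, beside 15.4% of 12175 genes. With any size, 6 of 9 members had opposite signs (BAX, BAK1, BID, MCL1, BCL2L11 and BAD), beside 48.8% of genes. Neither count has a replicate check.

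Genes with GC-rich transcripts sat higher in 22RV1 as a whole, so GC content is given beside these ratios. Over 4 equal groups of nuclear protein-coding genes from low to high GC content, the median log2 ratio was −0.16, −0.20, −0.032 and 0.12 in 22RV1, and −0.072, 0.019, 0.020 and −0.087 in PC3. BAX and BAK1 have nearly the same transcript GC content, 58.9% and 58.8%, and lay on opposite sides of 0 in both lines. The part of GC content in the ratio of any member was not tested. Over all scalings and pseudocounts, among them a centring on GC content and transcript length added after the values were seen, the log2 ratio of BAX was between 0.31 and 0.40 in 22RV1 and between −0.36 and −0.23 in PC3. That of BAK1 was between −0.48 and −0.37 in 22RV1 and between 0.21 and 0.36 in PC3, and that of BID between 0.23 and 0.58 and between −0.50 and −0.34. Signs that depended on the scaling or pseudocount were those of BCL2L11 and BBC3 in 22RV1 and of BAD in PC3.

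**Figure D3:**
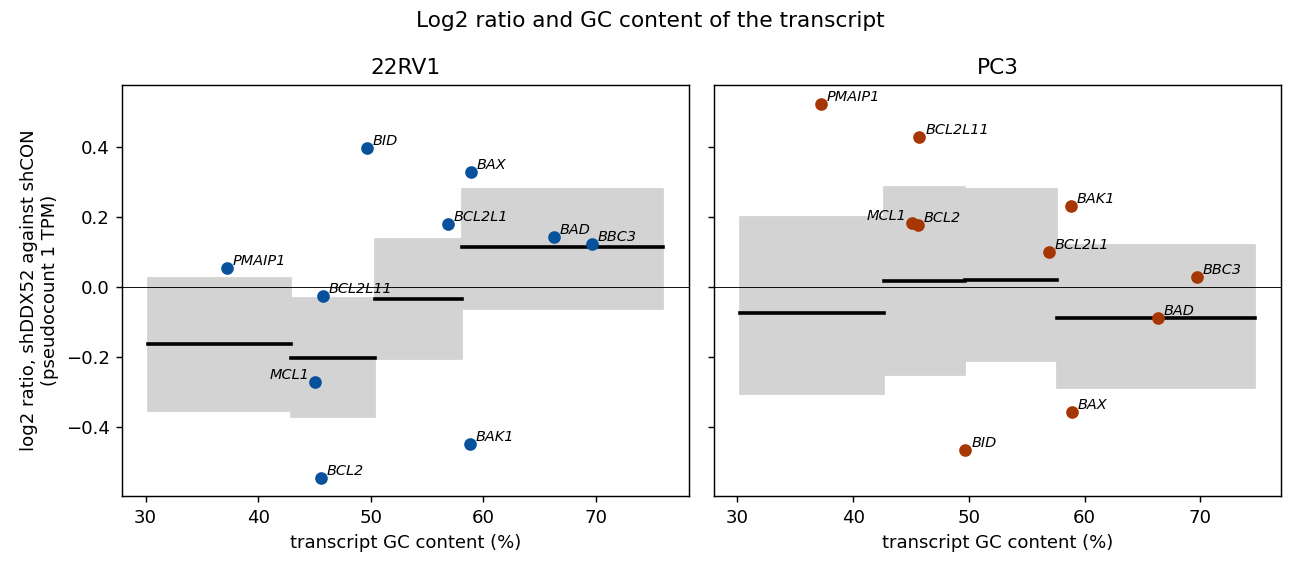
Log2 ratio (shDDX52 against shCON, pseudocount 1 TPM) against transcript GC content, with members as points. Grey boxes span the 25th to 75th percentile of nuclear protein-coding genes in 4 equal groups by GC content. Black lines are their medians, −0.16 in the lowest group and 0.12 in the highest in 22RV1. BAX and BAK1 have nearly the same GC content and differ in direction, and the part of GC content was not tested.

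The stretches ahead of the start sites were read for 1 sequence. The E-box CACGTG, which reads the same on both strands and is the site that MYC with MAX and related factors bind, was searched after the values were seen in the 250 bases before each RefSeq start (GRCh38.p14). It was found in windows of 3 of the 9 members with a window (BAX, BID and BBC3), and in 2228 of 35116 windows of all genes (6.34%), or 2110 of 27305 genes (7.73%). BAX had 4 matches, at 138, 93, 45 and 14 bases before its start, and 26 genes of all (0.0952%) had 3 or more. That start lies inside the BAX gene span given above, as do the matches at 45 and 14 bases. BID had 1 site, at 106 bases before 1 of its annotated starts and 47 bases before another, in 2 of its 5 windows. These starts lie inside the gene span given above, and the other 3 windows, further upstream, had 0 matches. BBC3 had 1 at 232 bases, and the windows of the other members searched, BAD among them, had 0. No window was found for MCL1, which was not searched. The windows are shown for BAX (chr19:48954625-48954874, plus strand) and for BID (chr22:17773984-17774233, minus strand), 5′ to 3′ with the E-boxes in capitals.
BAX upstream window: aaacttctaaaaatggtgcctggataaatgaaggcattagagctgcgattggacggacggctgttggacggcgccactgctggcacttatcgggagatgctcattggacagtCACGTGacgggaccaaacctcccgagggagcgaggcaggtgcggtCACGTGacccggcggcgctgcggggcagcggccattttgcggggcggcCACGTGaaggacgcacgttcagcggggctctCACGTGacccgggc
BID upstream window: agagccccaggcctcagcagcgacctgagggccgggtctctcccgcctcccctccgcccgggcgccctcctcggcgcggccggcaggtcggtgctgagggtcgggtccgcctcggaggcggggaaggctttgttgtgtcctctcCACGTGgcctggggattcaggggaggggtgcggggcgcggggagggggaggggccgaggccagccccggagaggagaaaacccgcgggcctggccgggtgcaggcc
A match is a description of the letters and not evidence of binding. In 22RV1 and PC3, the log2 ratios of the members with matches were 0.33 and −0.36 (BAX), 0.40 and −0.46 (BID) and 0.12 and 0.030 (BBC3). Those of BAD, with 0 matches, were 0.14 and −0.087, and its sign in PC3 depended on the scaling. Whether the E-box or MYC has a part in the ratio of any member was not tested. MYC itself was at 168.62 and 146.66 TPM in 22RV1 shCON and shDDX52 and at 192.43 and 122.44 TPM in PC3. These are mRNA values, and by western blot the paper saw no significant fall of c-Myc protein with DDX52 knocked down.

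Between the control libraries, 3 of 10 members differed by 2-fold or more on TPM + 1, against 0 between control and knockdown in either line. With knockdown, 2.86% of all genes were 2-fold lower and 2.24% higher in 22RV1, and 3.44% and 2.86% in PC3. Both shares were larger between the controls, as given below. Levels set across the lines come from separate deposited tables, each scaled within its libraries. Of 10 members, 1 was at least 2-fold lower in PC3 than in 22RV1 (BBC3), beside 21.3% of 15727 genes, and 2 were at least 2-fold higher (BCL2L1 and BID), beside 19.9%. In all, 5 of 10 were lower, beside 52.3% of genes, and the member median of −0.0034 stood beside −0.067 for all genes. The log2 ratios of PC3 to 22RV1 controls were 4.79 for BID, 1.95 for BCL2L1 and −2.13 for BBC3. Of genes at a similar level, 4.05% lay as far from 0 as BID, 12.2% as far as BCL2L1 and 15.5% as far as BBC3. BAX (−0.13), MCL1 (0.12), BAK1 (−0.46), BCL2L11 (−0.44) and BAD (0.54) lay closer to equality, PMAIP1 was at 0.85 (0.14 after centring on length and GC content and 1.01 with a pseudocount of 0.1), and BCL2 at −0.96 rested on values near 1 TPM. After that centring MCL1 was at −0.024 and BAX at 0.037, on the other side of 0.

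The order of the members by level differed between the lines accordingly. In 22RV1 shCON it ran BAD, BAX, BAK1, BCL2L1, MCL1, BBC3, BCL2L11, BID, PMAIP1 and BCL2, and in PC3 shCON it ran BAD, BCL2L1, BID, BAX, BAK1, MCL1, PMAIP1, BBC3, BCL2L11 and BCL2. Without replicates the spread is unknown, and neighbours such as BAK1 and BCL2L1 in 22RV1 or BAK1 and MCL1 in PC3, a few TPM or less apart, cannot be ranked.

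The summed TPM of the 10 members was 464.9 with shCON and 506.46 with shDDX52 in 22RV1, beside 773.82 and 724.27 in the PC3 libraries. Pro-survival genes made up 16.2% and 14.9% of this sum in 22RV1, and 26.7% and 30.9% of it in PC3. The share of the effectors was 35.6% and 36.2% in 22RV1, against 18.4% and 17.2% in PC3, and that of the BH3-only genes was 48.2% and 48.9%, against 54.9% and 51.9%. For the pro-survival and effector shares, the lines differed more than the hairpins within a line. Single genes carried these shares: BAD accounted for 40.4% and 41.0% in 22RV1, against 35.3% and 35.5% in PC3, and BID for 0.858% and 1.10%, against 17.7% and 13.7%. The BCL2L1 share was 9.51% and 9.91% in 22RV1, against 22.5% and 25.7% in PC3. A share of mRNA is no measure of the balance of proteins.

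**Figure D4:**
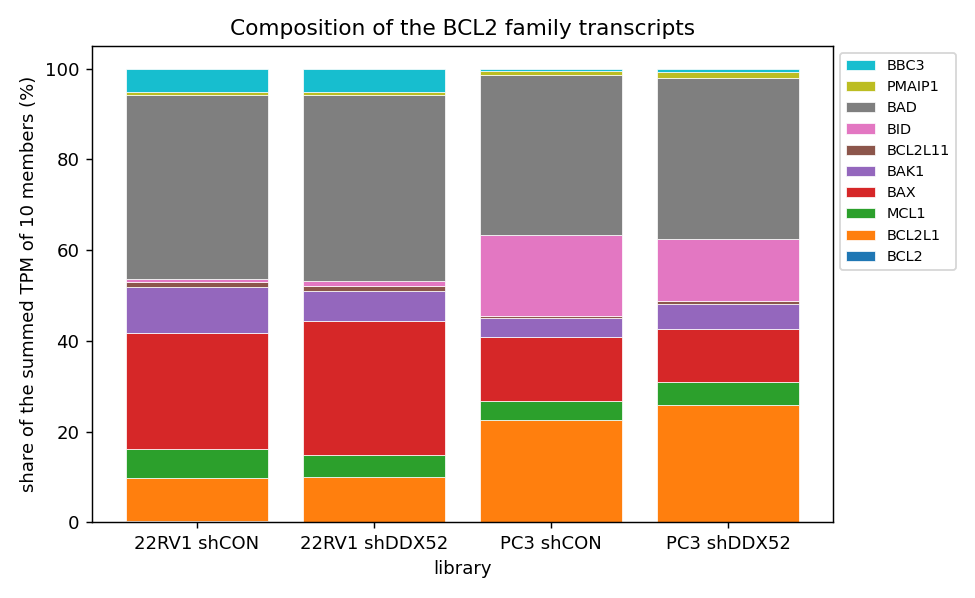
Share of the summed TPM of the 10 members held by each member, 1 bar per library, stacked from BCL2 at the bottom to BBC3 at the top. The BID and BCL2L1 segments are wide in the PC3 libraries (17.7% and 22.5% in PC3 shCON) and narrow in the 22RV1 libraries (0.858% and 9.51% in 22RV1 shCON).

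Ratios between partners that bind each other were taken within each library, shCON first. BAX/BCL2L1 was 2.69 and 2.98 in 22RV1 and 0.626 and 0.454 in PC3, and BAK1/BCL2L1 was 1.05 and 0.675 in 22RV1 and 0.194 and 0.213 in PC3. In PC3 the BCL2L1 transcript thus exceeded that of either effector in both libraries. PMAIP1/MCL1, the pair of NOXA and its preferred partner, was 0.111 and 0.142 in 22RV1 and 0.209 and 0.276 in PC3, which is 1.28-fold and 1.32-fold higher with shDDX52. BAK1/MCL1 was 1.56 and 1.37 in 22RV1 and 1.03 and 1.07 in PC3, and BCL2L11/BCL2L1 was 0.112 and 0.0968 against 0.0195 and 0.0263. BAX/BCL2 was 87.3 and 241 in 22RV1 and 518 and 229 in PC3, ratios that rest on BCL2 values under 2 TPM.

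Of 7 further family genes, BMF was the one at least 1.5-fold higher with shDDX52 in both lines. BMF, a BH3-only gene whose protein is tethered to the cytoskeleton and whose helix is encoded by the stretch below, was at 5.11 and 10.12 TPM in 22RV1 and 3.04 and 5.60 TPM in PC3.
BMF: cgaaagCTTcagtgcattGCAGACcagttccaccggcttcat
Its log2 ratios were 0.86 and 0.71, between 0.58 and 0.97 in 22RV1 and between 0.40 and 0.86 in PC3 over all scalings and pseudocounts, higher with shDDX52 in each. Of genes at a similar level, 5.89% in 22RV1 and 15.6% in PC3 lay at least as far from 0 as BMF. Of 12175 genes of any level tested in both lines, 41 (0.337%) were at least as high as BMF in both, and 86 (0.706%) were 1.5-fold higher in both. These 2 counts were made after the BMF values were seen, and the first has its limits set by BMF itself. BIK, a BH3-only gene of the endoplasmic reticulum, was at 5.93 and 9.33 TPM in 22RV1 and 36.92 and 30.02 TPM in PC3, with log2 ratios of 0.58 and −0.29. BOK, a BAX-like effector, was at 20.88 and 23.77 TPM and at 62.73 and 50.16 TPM. The pro-survival gene BCL2L2 was at 19.44 and 18.16 TPM in 22RV1 and 13.04 and 15.63 TPM in PC3, and BCL2A1, another, was listed at 0 in both 22RV1 libraries and at 7.58 and 6.42 TPM in PC3. BCL2L10 and HRK were below 1 TPM in all 4 libraries. Of the distant relatives, BCL2L12 was at 118.08 and 111.56 TPM in 22RV1 and 190.00 and 164.92 TPM in PC3, and BCL2L13 at 26.90 and 21.05 TPM and at 30.35 and 31.74 TPM. Of the same list, BNIP3, a hypoxia-induced mitophagy receptor, was at 29 and 24.83 TPM and at 58.35 and 92.53 TPM.

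Downstream of the family, cytochrome c joins APAF1 and caspase-9 in the apoptosome. CYCS, cytochrome c, was at 103.21 and 95.32 TPM in 22RV1 and 123.75 and 81.47 TPM in PC3, with a log2 ratio of −0.60 in PC3. Among proteins of the outer membrane and factors released with cytochrome c, 5 of 6 genes were lower in each line (medians −0.19 and −0.23), beside 58.8% of all genes in 22RV1 and 53.5% in PC3. Over all scalings and pseudocounts this count ran from 3 to 5 in each line. ENDOG, a mitochondrial nuclease, was at 129.33 and 170.57 TPM in 22RV1 and 21.57 and 12.22 TPM in PC3. VDAC1, the outer membrane channel, was at 212.57 and 177.21 TPM and at 180.12 and 183.97 TPM. Inhibitors of apoptosis and their antagonists were divided, with 3 of 6 lower in 22RV1 and 2 of 7 in PC3 (medians 0.0050 and 0.034), beside the same shares of all genes, and XIAP, a direct caspase inhibitor, was at 8.91 and 7.89 TPM and at 7.59 and 6.07 TPM. BIRC2, a ubiquitin ligase of that family, was at 3.79 and 3.96 TPM and at 7.37 and 8.94 TPM, and HTRA2, a mitochondrial protease that opposes it, was at 61.36 and 69.86 TPM and at 34.93 and 35.54 TPM. The sign of the list median depended on the scaling or pseudocount for the outer membrane genes and the inhibitors in 22RV1, and likewise for the BAD regulators in 22RV1 and the death receptor and MCL1 turnover genes in PC3 described next.

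The death receptor pathway reaches the family through BID, which caspase-8 cleaves. In the control libraries, 10 of its 10 genes were higher in PC3 than in 22RV1, beside 7491 of all 15727 genes, although TNFRSF10B at a log2 ratio of 0.0013 was level. At least 2-fold higher were 5, beside 19.9% of all genes. With shDDX52, 7 of 9 were lower in 22RV1 (median −0.29), beside 58.8% of all genes, and 6 of 10 in PC3 (median −0.060), beside 53.5%. TNFRSF10A, a TRAIL receptor, was at 8.90 and 5.94 TPM in 22RV1 and 11.04 and 15.77 TPM in PC3, with log2 ratios of −0.51 and 0.48. CFLAR, the decoy that blocks caspase-8, was at 6.50 and 7.54 TPM and at 24.14 and 26.37 TPM, and TNFRSF1A, a TNF receptor, was at 46.00 and 42.18 TPM and at 52.89 and 40.72 TPM.

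The following 4 genes were named because they differed by 2-fold or more in at least 1 line, so their sizes follow from how they were picked and they stand for no wider group. CDKN1A, the cell cycle inhibitor p21, was at 109.20 and 186.06 TPM in 22RV1 and 31.24 and 76.28 TPM in PC3, higher in both lines with log2 ratios of 0.76 and 1.26. BTG2, an antiproliferative gene, was at 12.39 and 33.40 TPM in 22RV1 and 0.70 and 1.31 TPM in PC3. Lower in both lines were TIGAR, a regulator of sugar metabolism, at 3.09 and 0.82 TPM and at 6.36 and 1.77 TPM, and GDF15, a secreted stress factor, at 98.49 and 43.45 TPM and at 43.64 and 16.92 TPM. The differences of CDKN1A, TIGAR and GDF15 were thus at least 1.5-fold in both lines.

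Of the transcription factors that act on BH3-only genes, 6 of 9 were lower with shDDX52 in 22RV1 (median −0.31), beside 58.8% of all genes, and 2 of 9 were lower in PC3 (median 0.18), beside 53.5%. DDIT3, which encodes the stress factor CHOP, was at 44.88 and 25.87 TPM in 22RV1 and 14.31 and 19.75 TPM in PC3, with log2 ratios of −0.77 and 0.44. ATF3 had the same pattern, at 16.87 and 10.12 TPM and at 11.02 and 19.09 TPM, with log2 ratios of −0.68 and 0.74. TP73, another of these factors, was at 4.74 and 6.13 TPM and at 3.25 and 4.17 TPM.

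MCL1 protein is set largely by its ligases and deubiquitinases. All 6 of these genes were lower with shDDX52 in 22RV1 (median −0.34), beside 58.8% of all genes, and this count was 6 under every scaling and pseudocount. In PC3, 3 of 6 were lower (median 0.027), beside 53.5%. USP9X, which removes ubiquitin from MCL1, was at 5.21 and 2.61 TPM in 22RV1 and 3.19 and 3.15 TPM in PC3, with log2 ratios of −0.78 and −0.014. MARCHF5, a mitochondrial ligase, was at 11.92 and 6.95 TPM and at 14.86 and 11.18 TPM, with log2 ratios of −0.70 and −0.38. USP13, another deubiquitinase, was at 6.0 and 4.63 TPM in 22RV1 and 3.48 and 7.64 TPM in PC3. HUWE1, a ligase, was at 41.93 and 37.31 TPM and at 35.90 and 39.60 TPM.

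BAD is kept in the cytosol by kinases of the AKT and PIM families and by 14-3-3 proteins. Of 13 such genes, 6 were lower with shDDX52 in 22RV1 (median 0.020), beside 58.8% of all genes, and 3 in PC3 (median 0.16), beside 53.5%. AKT1 was at 122.55 and 137.22 TPM in 22RV1 and 77.03 and 107.58 TPM in PC3, higher with shDDX52 in both. PIM3 was at 199.32 and 270.02 TPM and at 32.46 and 30.37 TPM, and YWHAG, a 14-3-3 gene, was at 110.83 and 74.35 TPM and at 65.06 and 72.88 TPM. YWHAH, another, was at 82.08 and 67.56 TPM and at 120.87 and 107.53 TPM.

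**Figure D5:**
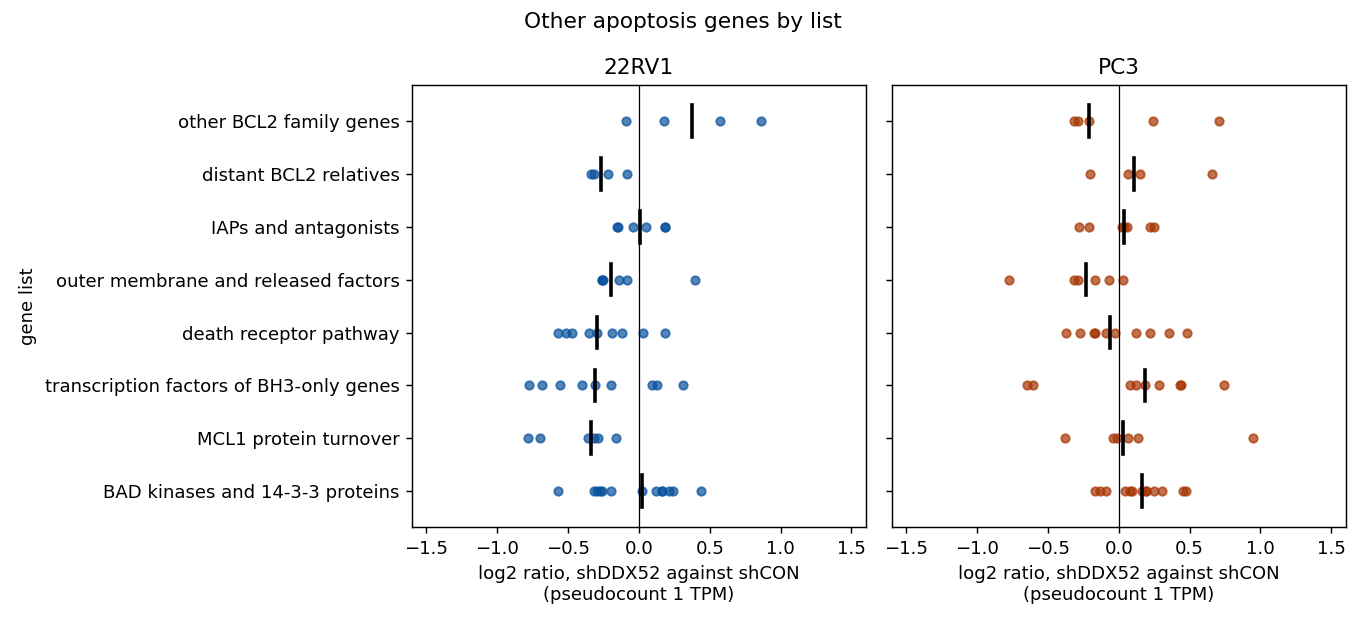
Log2 ratios (shDDX52 against shCON, pseudocount 1 TPM) of other apoptosis genes in 8 lists in 22RV1 and PC3, 1 point per gene tested and a black bar at the list median. The list of MCL1 turnover genes lies wholly left of 0 in 22RV1 (median −0.34) and around 0 in PC3 (median 0.027), and the transcription factor medians are −0.31 and 0.18.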

How the data were processed

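RNA-seq of 22RV1 and PC3 cells with shCON or shDDX52 (1 library each) was used. The authors deposited TPM values per Ensembl gene, in 1 table per cell line, after mapping on an online platform. The submitters' processing notes name CASAVA, HISAT2 and hg19 without role or version. The quantifier, annotation and strand setting are not given in the sources used here. Of 60671 identifiers, 42020 had a symbol. Positions, lengths and GC content came from GENCODE 29 (GRCh38), joined by gene identifier, so they do not describe the build behind the TPM, and upstream windows came from RefSeq (GRCh38.p14).

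The members and lists were chosen with earlier results of these data known. Log2 ratios used a pseudocount of 1 TPM and a minimum of 1 TPM in either library of a pair. With 1 library per group, counts past a fold stand beside the share of all genes past it. The arithmetic was tested on simulated data. Genes outside the 10 were named by rule: DDX52, MYC, all other BCL2 family genes, and of 9 further lists the genes past a log2 ratio of 1 either way and those highest or lowest in each line among genes of at least 5 TPM. Cell type markers were added as a check. Part of what the rule covers is left out of the text. Alternatives covered the pseudocount, the minimum, the scaling, the level window and leaving out members; the 1.25-fold threshold, the E-box search and centring on length and GC content were added after seeing the data. Scripts ran under Python 3.11.15 with pandas 2.3.3, numpy 2.4.6 and matplotlib 3.10.9.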

Additional observations from a re-analysis of the deposited data

Results flagged for a closer look

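BAX, BAK1 and BID are listed here because the shDDX52 library differed from its control in one direction in 22RV1 and in the other in PC3, by at least 0.2 in log2 ratio each time. The log2 ratio of BAX was 0.33 in 22RV1 and −0.36 in PC3. That of BAK1 was −0.45 in 22RV1 and 0.23 in PC3, and that of BID was 0.40 in 22RV1 and −0.46 in PC3. The difference between the lines was not tested, since no replicate exists, and its cause was not tested.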

How the results depend on the processing

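No paired analysis was possible because there is 1 library per condition. Of 380 alternative values of 85 results, 312 stayed within the tolerance and 68 moved beyond it. A turned sign was counted only for member ratios past 2-fold, those of BID, BCL2L1 and BBC3 between controls, and 0 of them turned. Some smaller ratios changed sign, as given above. In 22RV1, a pseudocount of 0.1 made 1 member (BCL2) at least 2-fold and so 1 at least 1.5-fold lower, a pseudocount of 5 left 1 member 1.25-fold lower and 0 higher, centring on length and GC content left 1 1.25-fold higher, and a minimum of 5 TPM left 1 member 1.25-fold lower and 2 lower at all. In PC3, scaling to nuclear protein-coding genes gave a member median of 0.23, 1 member 1.5-fold higher and 1 1.25-fold lower, with the median of all genes at 0.087 in place of −0.036. Centring on length and GC content gave a median of 0.21, with 1 member 1.5-fold higher, 1 1.25-fold lower and 1 1.25-fold higher. Centring on the median of all genes left 1 member 1.25-fold lower, and a pseudocount of 5 or a minimum of 5 TPM left 1 1.25-fold higher. Between controls, a minimum of 5 TPM gave a median of 0.33 and 3 members lower at all, and 2 members were 2-fold lower with a pseudocount of 0.1, with nuclear protein-coding scaling and without mitochondrial and the 20 highest genes. Leaving out MCL1 moved the difference in pro-survival share in 22RV1 from −1.34 to 0.0755 percentage points. Fewer members or values nearer 0 follow from the minimum and the pseudocount themselves, and for the rest the cause was not tested. TPM keeps no depth, so precision at low values, BCL2 above all, is unknown.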
